A study of Homo sapiens with 8 samples.

Results

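The olfactory receptor genes of human chromosome 11 were taken by symbol and position. A gene was included when the RefSeq annotation of hg38 lists it as protein-coding on chromosome 11 and its symbol has the form of an olfactory receptor (OR, a family number, subfamily letters and a member number). This gave 171 of 20037 protein-coding genes. Of the 171, OR9G9, OR8U8 and OR8U9 are listed between 18234 and 194908 of the chromosome, far from their relatives OR9G1 and OR8U1, and these positions were read as those of an alternate contig. The other 168 genes are described below. Tests include all 171, and values over the 168 carry no test because the 3 genes were set aside after their values were seen.

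The libraries come from HepG2, an established human hepatoblastoma cell line. Cells were transfected with RNAiMax and either 1 non-targeting siRNA (siControl) or 1 siRNA against the histone chaperone ANP32B (siANP32B), and were collected 3 days later. Chromatin was mapped by CUT&RUN, which cuts out and sequences the DNA around an antibody's target in opened cells. Of 8 libraries, 4 used anti-macroH2A1 antibodies (2 per siRNA), and each of these comes with its own list of broad domains of enrichment. The 4 IgG libraries were not analysed here. The labels number the replicates but do not say that they came from separate cultures, so p-values measure only the spread between these libraries, which may be technical. Neither ANP32B levels nor liver marker transcripts were analysed here.

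Olfactory receptors are seven-transmembrane, G protein-coupled receptors through which sensory neurons of the nose detect odorants. Each neuron is known to express a single receptor allele, while the other receptor genes are kept silent in compact chromatin, and most are not expressed outside the nose. Class I receptors, related to those of fish, and class II receptors, typical of land vertebrates, stand in separate tandem clusters. MacroH2A1 is a histone H2A variant with a large extra domain, often found over broad stretches of weakly transcribed chromatin.

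The 4 domain lists hold 8623 and 8116 domains for siControl and 7530 and 7404 for siANP32B (replicates 1 and 2, the order used throughout). On chromosome 11, domains covered 18.5% and 16.6% of the sequence in siControl and 20.6% and 19.7% in siANP32B cells. The lists carry no read counts, so the depth behind each is unknown.

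Most of the receptor genes lay outside macroH2A1 domains in these liver-derived cells. Of the 168 genes, 139 (82.7%) were touched by no domain in any of the 4 lists, against 46.9% of all protein-coding genes and 68.8% of the 221 olfactory receptor genes on other chromosomes. A gene was called covered when domains filled 50% or more of its length, counted in bins of 1 kb. By that measure 15 and 13 receptor genes were covered in siControl and 11 and 10 in siANP32B, or 8.93% and 7.74% against 6.55% and 5.95%. The share of all protein-coding genes covered was 20.1% and 16.7% in siControl, against 24.4% and 20.8% in siANP32B, so the receptor genes lay below the background in every library. Receptor genes are short, with a median length of 1103 bp, and other protein-coding genes under 5 kb were covered more often, at 29.0% and 23.3% in siControl and 33.8% and 28.9% in siANP32B.

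The few covered receptors were often covered in 1 library. Of 24 genes covered in at least 1 library, 13 were covered in a single library and 7 in all 4. Those 7 make up 4.17% of the 168, against 11.6% of all protein-coding genes. They are OR9Q1, OR6Q1, OR9I1, OR9Q2 and OR1S2, which are neighbours, and OR10V1 and OR2AT4, which stand in other clusters. Both siControl libraries covered 8 receptor genes, where 13.8% of all protein-coding genes were covered in both, and both siANP32B libraries covered 9, where the background was 17.3%. The plot of the 29 genes touched by a domain shows each value.

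**Figure D1:**
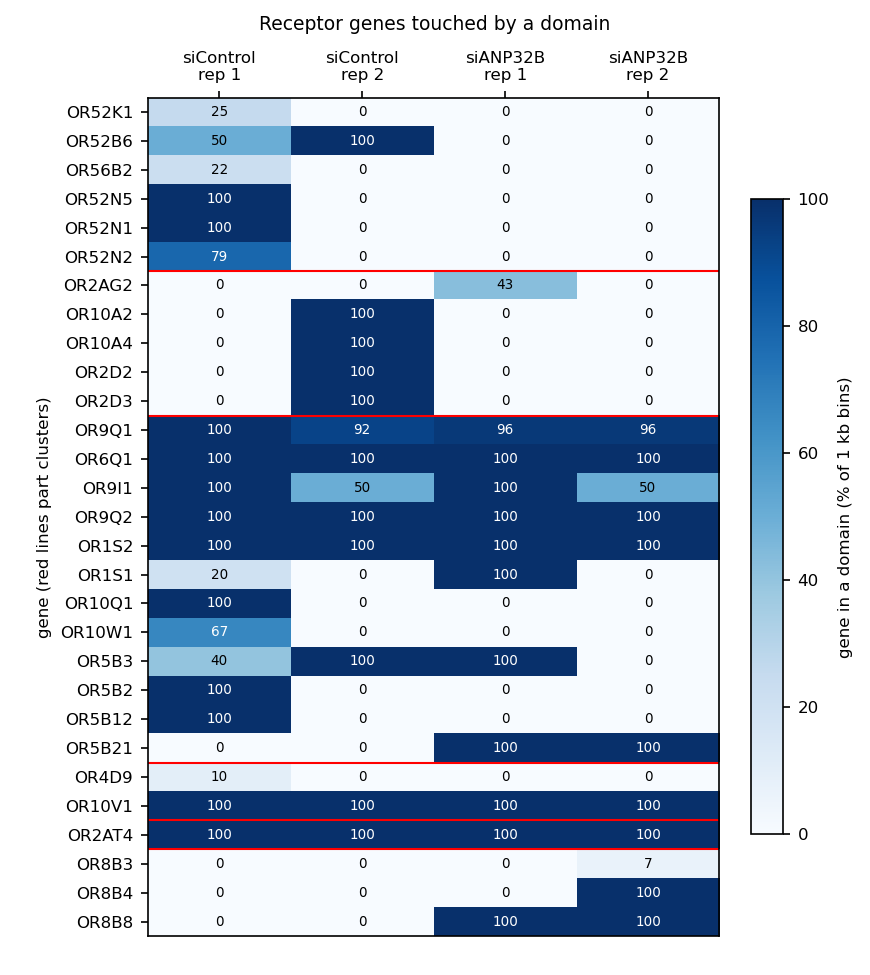
Share of each receptor gene in a macroH2A1 domain (percent of its 1 kb bins, colour and number) for the 29 genes touched by a domain, in order along chromosome 11, in the 4 libraries. Red lines part the position clusters; OR6Q1, OR9Q2, OR1S2, OR10V1 and OR2AT4 are at 100% in every library, while OR10A2, OR10A4, OR2D2 and OR2D3 are at 100% in siControl replicate 2 only.

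Receptor genes also lay far from the nearest domain. The median receptor gene lay 206 and 279 kb from a domain in siControl and 275 and 476 kb in siANP32B. For all protein-coding genes the medians were 8.86 and 21.2 kb in siControl and 8.91 and 14.1 kb in siANP32B. Receptor genes more than 100 kb from any domain numbered 111 and 128 of 168 in siControl (66.1% and 76.2%) and 136 and 139 in siANP32B (81.0% and 82.7%). Of all protein-coding genes, 23.2% and 27.8% lay that far in siControl and 25.3% and 26.9% in siANP32B. Olfactory receptor genes of other chromosomes were also far from domains. Of these, 57.5% and 61.1% lay more than 100 kb away in siControl, and 57.0% and 57.5% in siANP32B. Their medians were 138 and 174 kb in siControl and 132 and 153 kb in siANP32B. Genes of 1 cluster are neighbours and share their distances, so no test was made over genes.

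**Figure D2:**
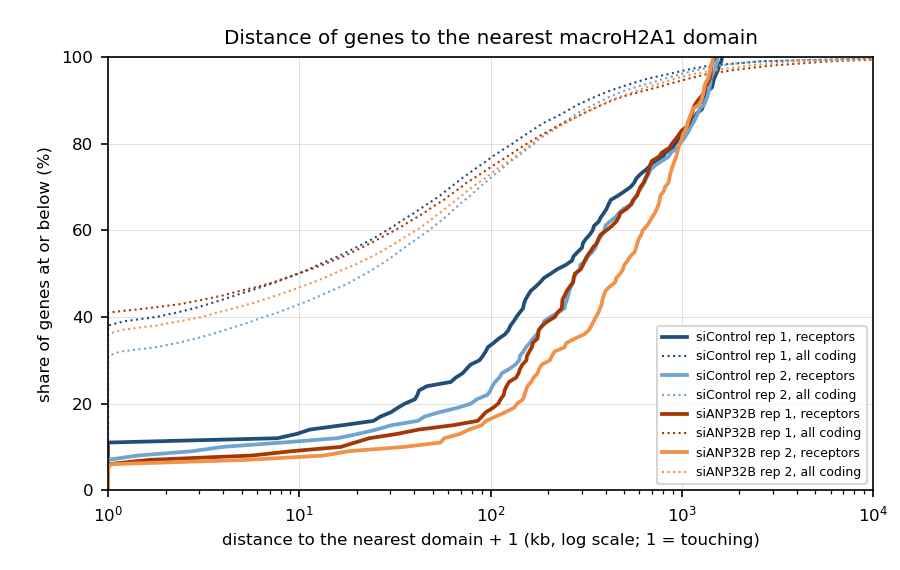
Cumulative share of genes (percent, vertical axis) within a given distance of the nearest macroH2A1 domain (kb plus 1, log axis), for the 168 receptor genes (solid lines) and all protein-coding genes (dotted lines) in each library. The 4 solid lines run below the dotted ones over most of the axis, with medians of 206 to 476 kb against 8.86 to 21.2 kb.

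The receptor genes fall into 11 position clusters, in which consecutive members are at most 500 kb apart. Together the spans take up 5.872 Mb. All 55 class I genes (families OR51, OR52 and OR56) stand in 1 cluster, from OR52B4 to OR52W1, and the 113 class II genes fill the other 10. Over all listed members, domains covered 9.59% and 7.97% of the cluster spans in siControl and 7.21% and 5.59% in siANP32B. Outside the spans, domains took up 18.9% and 17% of chromosome 11 in siControl, and 21.2% and 20.3% in siANP32B. Within each library the clusters were below the rest of the chromosome, with differences of -9.29 and -9.06 percentage points in siControl and -14 and -14.7 points in siANP32B. The mean difference was -11.8 ± 3.01 points (SD, n = 4 libraries of both groups). The exact two-sided sign-flip permutation p was 0.125, the smallest that 4 libraries can give. This SD mostly holds the difference between siControl and siANP32B, and is not the spread of replicates.

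**Figure D3:**
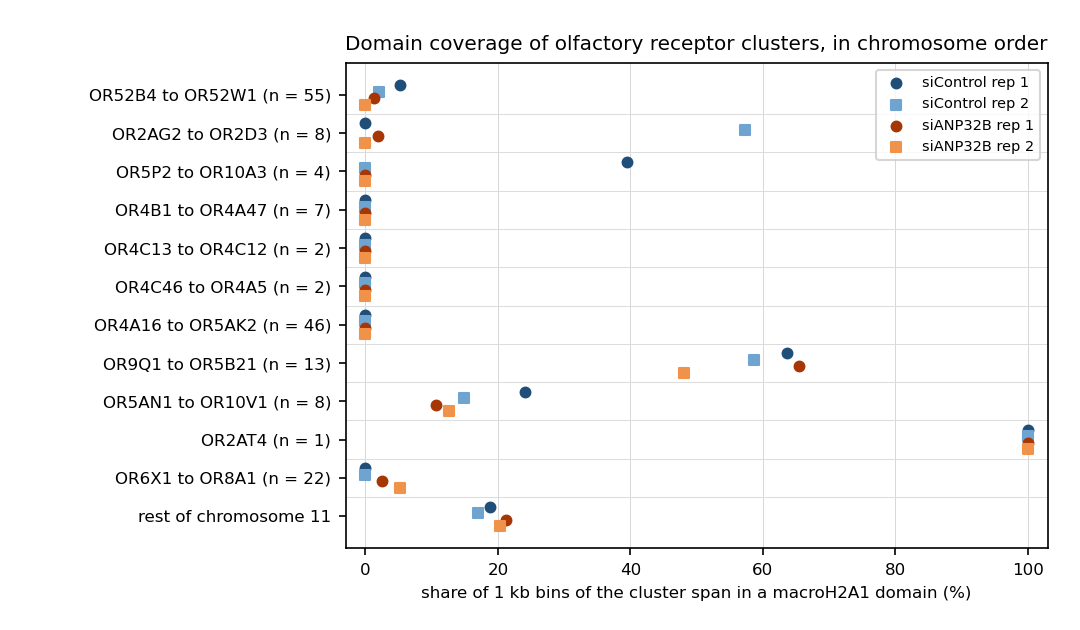
Share of each position cluster in macroH2A1 domains (percent of 1 kb bins) in the 4 libraries, one marker per library, with the number of receptor genes in each cluster. The OR9Q1 to OR5B21 cluster lies between 48.1% and 65.4% in all 4 libraries, OR2AT4 is at 100%, and 4 clusters are at 0.

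The siANP32B libraries were then compared with siControl over the same spans. The covered share was 8.78% ± 1.15 in siControl and 6.40% ± 1.15 in siANP32B (SD, n = 2 each), a difference of -2.38 percentage points with an exact two-sided permutation p of 0.333, the smallest that 2 libraries against 2 can give. Both siANP32B values lay below both siControl values, whereas the rest of the chromosome was higher in both siANP32B libraries. The difference between clusters and the rest was 5.19 points more negative in siANP32B (exact permutation p = 0.333). Over the 171 genes, those covered numbered 16 and 13 in siControl, against 13 and 10 in siANP32B, with 1 value in common (difference -3, exact permutation p = 0.667). Over the 168 placed genes, 15 and 13 against 11 and 10, the groups did not overlap. Leaving out siControl replicate 1 or siANP32B replicate 2 reduced the difference in covered share to -1.57 points and that in covered genes to -1.5. Joining members up to 1000 kb apart into clusters turned the difference in covered share to 0.256 points. Keeping only domains at or above a common score took it to -4.27 points and the difference in covered genes to -8 (11 and 13 in siControl, 3 and 5 in siANP32B, exact permutation p = 0.333 for each). That limit removed a larger share of each siANP32B list than of either siControl list, so it did not cut the groups alike.

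Domain sequence within the clusters was shared by fewer libraries than elsewhere. Of 898 kb of cluster sequence in a domain of any library, 233 kb (25.9%) lay in domains of all 4 and 493 kb (54.9%) in a single library. On the rest of chromosome 11, 41.4% lay in all 4 and 25.4% in a single library. Domains that touched the clusters numbered 14 and 15 in siControl and 11 and 7 in siANP32B. By the deposited domain score, a domain at the clusters stood at a median percentile of 37.5 and 57.8 of its own list in siControl and 44 and 36.6 in siANP32B.

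A pair of long stretches without any domain held 57 of the receptor genes. No domain of any library lay between chr11:54273001-57237000, a stretch of 2964 kb that ranks 4 by length among the 477 domain-free stretches of the chromosome. Of its 51 protein-coding genes, 48 are olfactory receptors, namely the 46 genes from OR4A16 to OR5AK2 and the pair OR4C46 and OR4A5. A stretch of 3008 kb, chr11:48128001-51136000, ranks 3 and holds 9 receptor genes among 13 protein-coding genes, from OR4B1 to OR4A47 and from OR4C13 to OR4C12. The stretches ranked 1 and 2 hold 5 and 1 protein-coding genes and no receptor. Whether reads can be mapped equally well in all these stretches was not analysed here. OR4A16, the first gene of the long run, is shown here by its promoter window, as an example from a stretch with no called domain. The bases after its annotated start open with ATG, a start codon, so the window may not hold the promoter itself. This is the RefSeq window of 250 bases before to 50 after the gene's start in GRCh38.p14 (chr11:55342951-55343250, plus strand), with capitals marking a TATA box match, TATAAA.
OR4A16: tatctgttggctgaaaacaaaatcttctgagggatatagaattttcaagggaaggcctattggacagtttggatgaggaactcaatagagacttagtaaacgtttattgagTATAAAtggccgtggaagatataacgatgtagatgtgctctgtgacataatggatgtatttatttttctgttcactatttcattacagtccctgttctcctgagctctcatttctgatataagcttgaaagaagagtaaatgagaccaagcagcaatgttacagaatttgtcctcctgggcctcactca

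The cluster from OR9Q1 to OR5B21 held most of the covered receptor sequence. It spans chr11:58023881-58508105 with 13 class II genes, and domains covered 63.6% and 58.6% of it in siControl and 65.4% and 48.1% in siANP32B. The groups overlapped, at 61.1% ± 3.49 against 56.8% ± 12.2 (SD, n = 2 each). Of all cluster sequence in domains, this cluster held 54.6% and 59.1% in siControl and 75.9% and 69.2% in siANP32B. Without it, domains took up 4.77% and 3.66% of the remaining clusters in siControl against 1.88% and 1.93% in siANP32B. Of its genes, 12 were touched by a domain, and OR5B17 was not.

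Within this cluster the genes from OR9Q1 to OR1S2 were covered in all 4 libraries. A long domain ran in from outside the cluster in each library, from 57825001 to 58210000 in siControl replicate 1, a length of 385 kb. In the other libraries the same sequence was broken into several domains. It took in OR9Q1, a gene of 157736 bp whose span contains OR6Q1 and OR9I1. OR9Q1 was covered by 100% and 92.5% in siControl, against 96.2% and 96.2% in siANP32B. OR9I1 was covered by 100% and 50% in siControl, against 100% and 50% in siANP32B, so its spread lay within the groups. OR6Q1, OR9Q2 and OR1S2 were at 100% in all 4 libraries.

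Past OR1S2 the libraries parted. OR1S1 was covered by 20% and 0% in siControl, against 100% and 0% in siANP32B. OR10Q1, OR10W1, OR5B2 and OR5B12 were covered in siControl replicate 1 only, by 66.7% to 100%. OR5B3 was covered by 40% and 100% in siControl, against 100% and 0% in siANP32B. At each of these 6 genes the groups overlapped. OR5B21, the last gene, was at 0% in both siControl and 100% in both siANP32B libraries, inside domains of 46 and 37 kb. Those domains stood at percentiles 5.60 and 36.6 of their lists by deposited score.

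**Figure D4:**
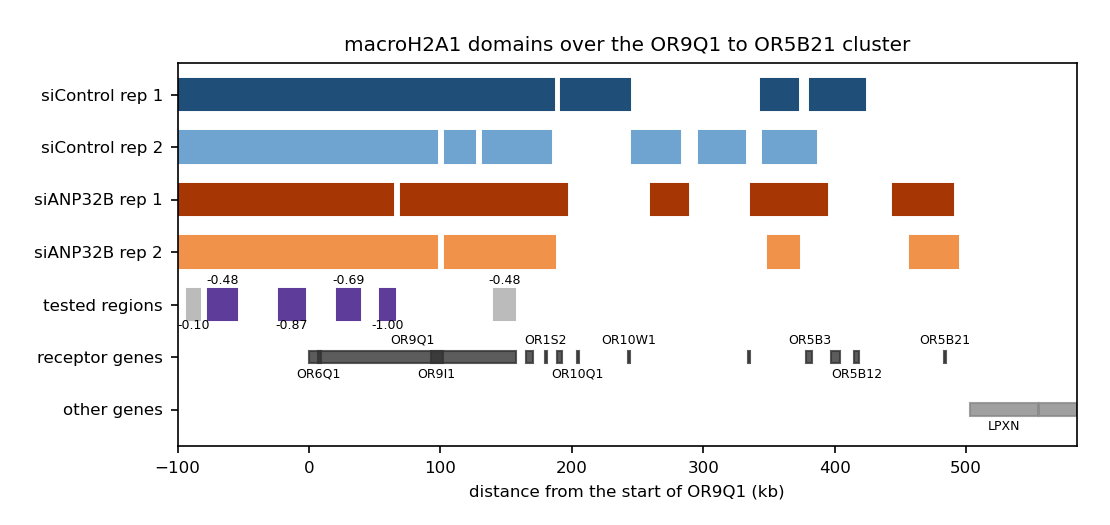
Map of the OR9Q1 to OR5B21 cluster, with distance from the start of OR9Q1 in kb on the horizontal axis. Rows show the macroH2A1 domains of each library, the regions of the authors' deposited table with their log2 fold (purple, passed at a false discovery rate of 0.05; grey, not passed), receptor genes and other protein-coding genes; all 4 libraries are filled across OR9Q1 and differ to its right, where OR5B21 is filled in siANP32B only.

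The promoter windows of 3 genes are set side by side because OR9Q2 was covered in every library, while OR5B21 and OR8B8 were covered in both siANP32B and in neither siControl library. Each is the RefSeq window of 250 bases before to 50 after the gene's start in GRCh38.p14. Their positions are chr11:58188820-58189119, plus strand for OR9Q2, chr11:58508056-58508355, minus strand for OR5B21, and chr11:124445647-124445946, minus strand for OR8B8. In OR5B21 the bases after the annotated start open with ATG, so its window may not hold the promoter itself. Capitals mark a match to TAATTA, the core bound by many homeodomain proteins.
OR9Q2: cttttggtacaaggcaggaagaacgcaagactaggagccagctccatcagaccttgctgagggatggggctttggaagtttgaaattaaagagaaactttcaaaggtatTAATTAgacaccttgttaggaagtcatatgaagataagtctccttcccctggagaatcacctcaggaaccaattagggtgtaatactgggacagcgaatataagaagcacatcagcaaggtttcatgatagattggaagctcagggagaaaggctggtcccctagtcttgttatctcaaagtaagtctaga
OR5B21: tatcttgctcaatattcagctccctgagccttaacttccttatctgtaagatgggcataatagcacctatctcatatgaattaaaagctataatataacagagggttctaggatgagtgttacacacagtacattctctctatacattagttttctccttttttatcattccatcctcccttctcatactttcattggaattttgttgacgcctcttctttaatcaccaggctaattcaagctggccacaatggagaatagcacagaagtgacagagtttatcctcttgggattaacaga
OR8B8: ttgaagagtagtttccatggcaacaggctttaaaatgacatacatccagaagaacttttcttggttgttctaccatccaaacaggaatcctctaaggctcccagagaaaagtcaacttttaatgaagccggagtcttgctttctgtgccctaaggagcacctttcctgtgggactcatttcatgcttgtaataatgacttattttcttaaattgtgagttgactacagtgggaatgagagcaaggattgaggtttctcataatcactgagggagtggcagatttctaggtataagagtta

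All 3 windows lay in the same state as their gene, but each shares a 1 kb bin with it, so this is no separate result. OR9Q2 was at 100% in all 4 libraries, and OR5B21 and OR8B8 were at 0% in both siControl and 100% in both siANP32B libraries. The windows had 43.3%, 37.7% and 40.3% G and C, with 2, 1 and 1 CpG. OR9Q2 held 1 TAATTA, and neither TAATTA nor a TATA box match was found on either strand of the other 2 windows.

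OR8B8 stands in the cluster from OR6X1 to OR8A1, chr11:123753580-124571374, with 22 class II genes. Domains covered 0% and 0% of it in siControl and 2.56% and 5.25% in siANP32B, so the groups did not overlap. A single domain of 21 kb in siANP32B replicate 1 and of 43 kb in replicate 2 gave these values. OR8B8 was at 100% in both, OR8B4 at 100% in replicate 2 only, and OR8B3 at 6.67% in replicate 2 only. The other 19 genes were touched in no library. Over the 168 genes, OR5B21 and OR8B8 were the 2 (1.19%) with both siANP32B values above both siControl values, against 8.91% of all protein-coding genes. Genes touched by no domain cannot separate the groups, and they made up 82.7% of the 168, against 46.9% of all protein-coding genes. The low share, like that of the opposite pattern below, is thus no separate result.

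The opposite pattern was seen at 1 gene (0.595%), OR52B6, against 2.88% of all protein-coding genes. OR52B6, a class I receptor, was covered by 50% and 100% in siControl and by 0% in both siANP32B libraries. It lay in domains of 11 and 18 kb at percentiles 74.6 and 92.1 of their lists by deposited score. Its promoter window is printed because this gene alone was covered in both siControl and neither siANP32B library (chr11:5580627-5580926, plus strand, GRCh38.p14, RefSeq). The window itself lay in a domain in siControl replicate 2 only. Capitals mark TAATTA.
OR52B6: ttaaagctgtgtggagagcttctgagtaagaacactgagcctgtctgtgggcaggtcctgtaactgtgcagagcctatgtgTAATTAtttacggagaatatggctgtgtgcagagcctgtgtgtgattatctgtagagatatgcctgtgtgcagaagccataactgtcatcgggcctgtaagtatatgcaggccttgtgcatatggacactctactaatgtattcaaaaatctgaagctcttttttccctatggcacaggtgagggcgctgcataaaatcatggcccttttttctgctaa

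The class I cluster around OR52B6 was thinly covered. It spans chr11:4367263-6200186, and domains covered 5.29% and 2.07% of it in siControl and 1.25% and 0% in siANP32B, or 97 and 38 kb against 23 and 0 kb. Both siANP32B values lay below both siControl values. Of the 139 kb in any domain, 120 kb lay in a single library and none in all 4. OR52N5, OR52N1 and OR52N2 were covered by 100%, 100% and 78.6% in siControl replicate 1 and by 0% in the other 3 libraries. They share 1 domain of 51 kb, at percentile 4.14 of its list. OR52K1 and OR56B2 were touched by 25% and 22.2% in siControl replicate 1 and not elsewhere. No member of OR51, the family with 23 genes here, was touched in any library.

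**Figure D5:**
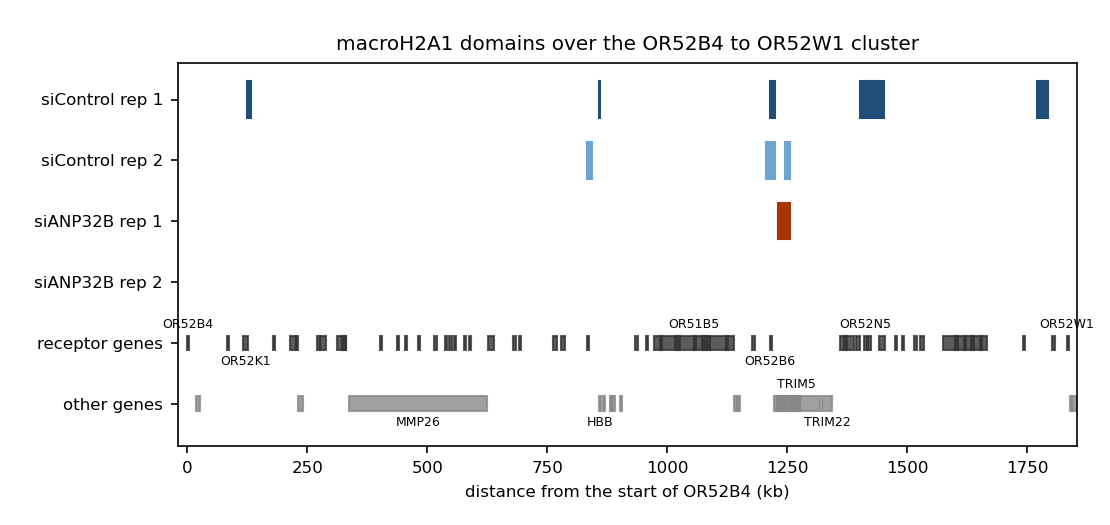
Map of the class I cluster, with distance from the start of OR52B4 in kb on the horizontal axis. Rows show the macroH2A1 domains of each library, receptor genes and other protein-coding genes; the short domains of siControl replicates 1 and 2 overlap only at OR52B6, 1 domain lies in siANP32B replicate 1 and none in replicate 2.

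The beta-globin genes stand inside this cluster. HBB, the adult beta chain of haemoglobin, was at 100% in siControl replicate 1 and 0% in the other 3 libraries. Its domain is 3 kb long and stood at percentile 98.9 of its list by deposited score. HBD, HBG1, HBG2 and HBE1 were at 0% in all 4. Of 8 TRIM genes of the same chromosome band, which encode ubiquitin ligases with antiviral members, 4 were touched in no library. That share is near the 46.9% of all protein-coding genes. TRIM3 and TRIM66, among the 8, lie outside the cluster span. TRIM6 was covered by 82.4% in siANP32B replicate 1 and 0% elsewhere, and TRIM5, a restriction factor of retroviruses, by 4.08% and 14.3% in siControl, against 23.5% and 0% in siANP32B.

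The next clusters along the chromosome held domains in single libraries. From OR2AG2 to OR2D3 (8 genes), domains covered 0% and 57.3% in siControl and 1.91% and 0% in siANP32B. OR10A2, OR10A4, OR2D2 and OR2D3 were at 100% in siControl replicate 2 and 0% in the other 3 libraries, all in 1 domain of 72 kb. OR2AG2 was touched by 42.9% in siANP32B replicate 1. From OR5P2 to OR10A3 (4 genes), a domain of 58 kb in siControl replicate 1 covered 39.5% of the span and missed all 4 genes. The 2 siControl libraries thus differed from each other at these clusters by more than the group means did.

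Beyond the OR9Q1 cluster, OR10V1 and OR2AT4 were covered in every library. OR10V1 closes the cluster that opens with OR5AN1 (8 genes), of which 24.2% and 14.9% lay in domains in siControl and 10.7% and 12.6% in siANP32B, without overlap of the groups. OR10V1 itself was at 100% in all 4 libraries, OR4D9 was touched by 10% in siControl replicate 1, and the other 6 genes were touched in none. OR2AT4, a receptor also known from skin keratinocytes, stands alone at chr11:75081753-75096890 in domains of 140 and 106 kb in siControl and 130 and 114 kb in siANP32B. By deposited score these domains stood at percentiles 50.5 and 58.2 of their lists in siControl and 13.5 and 26.4 in siANP32B. The OR10V1 promoter window is shown as that of a gene covered in every library outside the OR9Q1 cluster (chr11:59713796-59714095, minus strand, GRCh38.p14, RefSeq), with both matches to TATAAA in capitals. The bases after its annotated start open with ATG, so the window may not hold the promoter itself.
OR10V1: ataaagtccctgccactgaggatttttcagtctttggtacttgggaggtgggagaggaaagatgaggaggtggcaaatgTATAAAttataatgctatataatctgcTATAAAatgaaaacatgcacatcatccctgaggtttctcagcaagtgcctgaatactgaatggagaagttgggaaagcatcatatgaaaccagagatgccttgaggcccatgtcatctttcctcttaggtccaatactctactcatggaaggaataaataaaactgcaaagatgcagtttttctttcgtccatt

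Differences between clusters in the siANP32B effect were compared for the 7 clusters with at least 5 genes. Over 21 pairs of clusters the smallest exact permutation p was 0.333, which became 0.7 after Benjamini-Hochberg adjustment over the pairs. No difference between clusters passed.

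The authors' deposited table of differential regions reached only 1 receptor gene. OR9Q1 overlapped 3 of its regions, where 9.25% of all protein-coding genes overlapped a region, 5.61% a lower and 0.539% a higher one. Of the genes covered in all 4 libraries, 45.2% overlapped a region of the authors' deposited table, against 1 of the 7 such receptor genes. In the authors' deposited table, chr11:58045001-58063000 had a log2 fold of -0.69 for siANP32B against siControl (false discovery rate 0.00455), with 7 of 9 windows down. In the authors' deposited table, chr11:58078001-58089000 had a log2 fold of -1.0 (false discovery rate 9.59e-06). The region chr11:58165001-58181000, at the far end of OR9Q1, had -0.48 in the authors' deposited table and did not pass (false discovery rate 0.142).

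Both regions called lower in OR9Q1 lay in domains in every library, by 100% except for 90.9% of the second region in siANP32B replicate 1. The authors' deposited table also lists chr11:58001001-58021000, which ends 2.88 kb before OR9Q1, at a log2 fold of -0.87 (false discovery rate 3.14e-05). In the authors' deposited table, 57.3% of the 206 regions on chromosome 11 were lower and 3.40% higher, close to the 58.4% and 3.82% over all its regions, so a lower call is the common one. Its scaling between libraries is not stated, and another scale would shift all folds alike. Most receptor genes were far from any region of the authors' deposited table: 159 of 168 lay more than 100 kb away, with a median of 1125 kb. No share over all protein-coding genes is given beside this count. Of the regions called lower, 96.7% and 95.3% lay in siControl domains and 91.7% and 93.0% in siANP32B domains. Genes outside domains could thus rarely be near a region, and this distance is no separate result.

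Neighbouring genes with other functions were also rarely covered. Of 48 nonreceptor protein-coding genes in a cluster span or within 100 kb of one, 36 were touched by no domain. Of all protein-coding genes, 46.9% were touched by none. Covered neighbours numbered 3 and 1 (6.25% and 2.08%) in siControl and 1 and 2 (2.08% and 4.17%) in siANP32B, and none was covered in all 4 libraries. The background of all protein-coding genes was 20.1% and 16.7% in siControl, 24.4% and 20.8% in siANP32B, and 11.6% in all 4 libraries. MRPL17, a protein of the mitochondrial ribosome, was covered by 50% and 100% in siControl, against 25% and 100% in siANP32B. TUB was at 0% and 0% in siControl and 17% and 75% in siANP32B. PTPRJ, a receptor tyrosine phosphatase, was touched in every library, by 24.1% and 38.2% in siControl, against 47.6% and 38.7% in siANP32B. SLCO2B1, an organic anion transporter of the liver, was touched by 26.8% and 35.7% in siControl, against 32.1% and 16.1% in siANP32B.

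The genes of the olfactory signalling cascade, which lie elsewhere in the genome for the most part, were covered in larger shares than the receptors. Of 16 olfactory signalling genes, 8 and 6 (50% and 37.5%) were covered in siControl and 8 and 6 (50% and 37.5%) in siANP32B, where the background of all protein-coding genes was 20.1% and 16.7% against 24.4% and 20.8%. In all 4 libraries 5 (31.2%) were covered, against 11.6% of all protein-coding genes. OMP, the marker protein of mature olfactory neurons, and CNGB1, a subunit of the olfactory transduction channel, were at 100% in all 4. The list was not covered as a whole. Of the 16, 5 (CNGA2, CNGA4, GNB1, GNG13 and PDE1C) were touched by no domain in any library, against 46.9% of all protein-coding genes. GNAL, the G protein alpha subunit that couples to the receptors, was covered by 60.4% and 55.8% in siControl, against 72.1% and 82.2% in siANP32B. REEP1 was covered by 60.3% and 88.1% in siControl, against 100% and 95.2% in siANP32B, and SLC24A4, the exchanger that removes calcium after the response, by 85.6% and 68.9% against 96.1% and 95%. ADCY3, the adenylyl cyclase of the cascade, was covered by 93.1% and 66.7% in siControl, against 56.9% and 0% in siANP32B. Of the 16, a count of 4 (25%) overlapped a region of the authors' deposited table, against 9.25% of all protein-coding genes. OMP lay inside a higher region in the authors' deposited table (log2 fold 1.18, false discovery rate 1.98e-07). That region, chr11:77017001-77111000, is far longer than the gene at chr11:77102840-77103331. SLC24A4 had 1 higher (log2 fold 0.88, false discovery rate 2.14e-05) and 1 lower region (-0.58, 0.00833) in the authors' deposited table. CNGB1 had 2 lower regions in the authors' deposited table (-0.81 and -0.47, false discovery rates 5.60e-05 and 0.0134) and 1 that did not pass, and the single region at GNAL did not pass (-0.21, 0.666).

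Among 11 genes for nuclear factors tied to receptor choice, 3 and 2 (27.3% and 18.2%) were covered in siControl and 4 and 5 (36.4% and 45.5%) in siANP32B. The background of all protein-coding genes was also higher in siANP32B, at 24.4% and 20.8% against 20.1% and 16.7%. EBF4 was at 100% in all 4 libraries, and LHX2, a homeodomain factor of olfactory neurons, at 100% and 73.9% in siControl and 100% and 100% in siANP32B. In the authors' deposited table, chr9:123999001-124012000 was lower (log2 fold -0.52, false discovery rate 0.0269). That region reaches LHX2 only at its end, since the gene starts at 124011768. ATF5 was covered by 66.7% and 0% in siControl, against 83.3% and 83.3% in siANP32B. EBF3 was covered by 43.8% and 42.3% in siControl, against 60% and 73.1% in siANP32B. Of the 11, 3 (CBX5, EBF1 and LDB1) were touched by no domain in any library, against 46.9% of all protein-coding genes. ANP32B itself, on chromosome 9, was at 0% in all 4 libraries.

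The promoter windows of the receptors were poor in G and C. RefSeq windows of 300 bases matched 135 of the 171 genes by gene identifier, and 15842 of all protein-coding genes. Their median G and C content was 37.0%, against 62.7% over all windows, with a median of 1 CpG against 22. No CpG was found in 26.7% of receptor windows and 1.91% of all windows. On either strand, TAATTA was found in 33 receptor windows (24.4%, against 3.36% of all), TATAAA in 48 (35.6%, against 9.75%), and CCCNNGGG, the core bound by EBF factors, in 11 (8.15%, against 21.4%). TAATTA and TATAAA hold no G or C, and the part of base composition in these shares was not tested. A match is not a binding site. In OR4A16, OR5B21, OR52B6 and OR10V1 the bases after the annotated start open with ATG, a start codon. Such a start may be that of the coding sequence, so the window may not hold the promoter. Windows of this kind were not counted among receptors or all genes, so these contrasts may mix kinds of start.

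Receptor promoter windows on other chromosomes had close values, with 38.3% G and C, TAATTA in 21.8%, TATAAA in 35.2% and CCCNNGGG in 7.82% of 179 windows. Among the chromosome 11 genes, median G and C content was 41.7% for 6 genes covered in all 4 libraries, 40.2% for 14 covered in 1 to 3, and 37.0% for 115 covered in none. With 6 genes, of which 5 are neighbours, this order is a description. Class I windows had a median of 40% and class II windows of 37%.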

How the data were processed

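MacroH2A1 CUT&RUN domains of 4 libraries (2 siControl, 2 siANP32B) were analysed. The submitters' processing notes name hg38 as the build and, as tools, edgeR, SICER, deepTools, SAMtools, Bowtie2 and Trim Galore, without versions, settings or the control library. For each of the 4 libraries the authors deposited a domain list, on a 1 kb grid, with the caller's own score per domain, used here only to rank or filter. The authors' deposited table of regions gives, per the file headers, a p-value, a false discovery rate, the log2 fold of a representative window (log2 by the convention of edgeR), and counts of windows tested, up and down, which count windows and not reads. The order of its groups is not written: of 171 regions with positive calls, 88.3% and 80.7% lay at least 50% in siControl domains and 99.4% and 99.4% in siANP32B domains, so positive was read as higher in siANP32B.

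Coverage was the percent of 1 kb bins in a domain, computed with Python 3.11.15, numpy 2.4.6, pandas 2.3.3 and scipy 1.17.1, and the gene coverage step was tested on simulated data. Groups were compared by exact permutation tests. Regions passed at a false discovery rate of 0.05. Gene spans and promoter windows came from RefSeq (GRCh38.p14). Members, lists and alternatives were chosen with earlier results of these data known. Named genes were the ends of each cluster, members covered in a library or with groups that did not overlap, members within 50 kb of a region, the best covered neighbours within 100 kb, the globin and TRIM genes, up to 4 of each other list and ANP32B. OR5B17, OR4D9, OR52K1, OR56B2, OR8B3, GNAL, ADCY3, TAAR6, TAAR8, TAAR9, TAS2R8, TAS2R9, TAS2R16, DCHS1, OR9G1 and OR8U1 fall outside this rule and were named after their values were seen. So do CNGA2, CNGA4, GNB1, GNG13, PDE1C, CBX5, EBF1 and LDB1. Mappability over these similar tandem genes was not analysed here. Alternatives changed the score limit, coverage threshold, gene flanks, cluster gap, the libraries and members included, and the false discovery rate.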

Additional observations from a re-analysis of the deposited data

Results flagged for a closer look

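In 2 comparisons, a pair of position clusters had differences of opposite sign between siControl and siANP32B. The class I cluster from OR52B4 to OR52W1 had 3.68% in domains in siControl and 0.627% in siANP32B, whereas the cluster from OR6X1 to OR8A1 had 0% and 3.91%, so the effects differed by -6.96 percentage points. The cluster from OR5AN1 to OR10V1 had 19.5% and 11.7%, and its effect differed from that of OR6X1 to OR8A1 by -11.8 points. In each pair, every siANP32B library lay on the same side of every siControl library within its cluster. The exact permutation p of each difference was 0.333, the smallest that 2 libraries against 2 can give, and 0.7 after Benjamini-Hochberg adjustment over 21 pairs, so neither difference passed.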

How the results depend on the processing

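The clusters stayed below the rest of chromosome 11 under every alternative run, from -16.4 points without the OR9Q1 to OR5B21 cluster to -7.31 with equal numbers of best-scored domains (3702 per library). The siANP32B difference in covered share reversed to 0.256 points when clusters joined members up to 1000 kb apart, and 1 region called higher, at DCHS1, then lay inside a span, against 0 otherwise. With a common score limit of 72.4, the difference in covered share was -4.27 points and that in covered members -8, and members covered in both siANP32B libraries numbered 1. That limit removed a larger share of each siANP32B list than of either siControl list. With equal numbers of domains, members covered in both siControl libraries were 4 and in both siANP32B libraries 1. Without the OR9Q1 to OR5B21 cluster and the 3 genes of an alternate contig, an alternative chosen after seeing the data, both counts were 3. Members near a region of the authors' deposited table were 3 within 10 kb and 7 within 50 kb, against 1 overlapping.

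Leaving out 1 library at a time gave differences of -3.19 to -1.57 points in covered share, -4.5 to -1.5 covered members, and -12.7 to -10.8 points between clusters and the rest of the chromosome. With 1 library left, members covered in siControl were 13 to 16 and in siANP32B 10 to 13, since a gene then has to be covered in that library alone. With the replicate number as a block, the differences were -2.38 points and -3 members (exact sign-flip permutation p = 0.5 for each, the smallest that 2 pairs can give). Deviations of libraries with the same number had a correlation of 0.00880 over bins of the chromosome and 0.0852 over genes. These correlations rest on domain calls of 2 libraries per group and cannot decide whether the replicates were paired. The labels give only the number. Depth is unknown, so the number and length of domains cannot be judged against it.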

Other observations

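Of 205 olfactory receptor pseudogenes annotated anywhere on chromosome 11, 22 and 23 (10.7% and 11.2%) were covered in siControl and 20 and 17 (9.76% and 8.29%) in siANP32B. These shares were above those of the intact genes in each library. The difference was not tested, and how many pseudogenes lie in the cluster spans was not counted. In all 4 libraries 7.32% of the pseudogenes were covered, against 4.17% of the 168 intact genes.

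Of 37 other chemoreceptor genes (trace amine-associated, vomeronasal and taste receptors), 0 and 4 were covered in siControl and 5 and 6 in siANP32B. None was covered in both siControl libraries, where 13.8% of all protein-coding genes were, and 3 (8.11%) in both siANP32B libraries, where the background was 17.3%. TAAR5 and TAAR2, receptors for volatile amines that are neighbours on chromosome 6, and TAS1R2, a subunit of the sweet taste receptor, were at 0% in both siControl and at 100% in both siANP32B libraries. TAAR6, TAAR8 and TAAR9 were at 100% in siANP32B replicate 2 only. Among the bitter taste receptors, TAS2R9 and TAS2R16 were at 100% in siControl replicate 2 only. TAS2R7 was at 100% and TAS2R8 at 100% in siControl replicate 2, with 100% and 50% in siANP32B replicate 1 and 0% in the other libraries. Over all protein-coding genes, 8.91% had both siANP32B values above both siControl values. No test of these values was made.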
